A study of Mus musculus with 4 samples.

Results

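The genes described here are 9 chemotactic receptor genes of the mouse, Ccr1, Ccr2, Cx3cr1, Cxcr4, Ccrl2, Cmklr1, Fpr1, Fpr2 and Ackr3, out of 18364 genes in the expression table. They were chosen by symbol, and all 9 were in the table. Expression was measured by bulk RNA-seq of large peritoneal macrophages (LPMs), long-lived resident cells of the peritoneum, sorted as F4/80+ MHCII- CD102+ cells from C57BL/6 mice aged 8 weeks. There were 2 libraries labelled WT, whose genotype label reads wild type, and 2 libraries labelled Rxra-KO, with the genotype label Rxra-/-. The labels name no Cre line. Per the study, Rxra fl/fl mice carrying LysM-Cre, active in cells that express lysozyme M, were compared with Rxra fl/fl littermates, so the loss of Rxra is limited to the LysM lineage, which includes other macrophages and neutrophils. Whether cells of several mice were pooled into a library, and the sex of the mice, were not given in the sources used here.

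Chemotactic receptors are G protein-coupled receptors of the cell surface that let leukocytes follow gradients of chemokines, formyl peptides or other attractants. Most signal through Gi proteins to the cytoskeleton, and a group of atypical receptors binds the same ligands and removes or presents them instead. CCR2, the receptor for CCL2, is best known from inflammatory monocytes, which need it to leave the bone marrow, whereas LPMs renew themselves in the cavity. Retinoid X receptor alpha, the product of Rxra, is a nuclear receptor that binds DNA as a partner of other nuclear receptors.

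Some receptor genes share stretches of identical sequence, and this bears on how short reads are assigned to them. Fpr1 and Fpr2, neighbours on chromosome 17, share a run of 50 bases, at positions 397 to 446 of the 1095 coding bases of Fpr1, in exon 2 of 2 at chr17:17877280-17877329 on the - strand (GRCm38, GENCODE transcripts). The run is shown because reads that fall wholly inside it fit either gene, and no letters are in capitals because every base is shared.
Fpr1 and Fpr2: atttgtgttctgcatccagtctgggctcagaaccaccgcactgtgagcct

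Over whole transcripts, stretches of 31 bases that also occur in another gene made up 4.12% of those of Ccr2, 1.55% of those of Fpr1 and 0.642% of those of Ccr1. None of the stretches of Ackr3 did. For Fpr2 the share was 48.3%, with 487 of the 533 shared stretches in Gm5966, so the level of Fpr2 is uncertain in these data. Cx3cr1 had 3.22%, Cmklr1 0.606%, Ccrl2 0.247% and Cxcr4 0.113%.

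Because the deleted protein binds DNA, the promoters of 2 neighbouring receptor genes are shown, that of Ccr2, the member whose level differed between the groups, and that of Ccr1, which lies in the same cluster. Each window has 300 bases around the RefSeq start of the gene, in the orientation of the gene (RefSeq, GRCm38.p6). The Ccr2 window is chr9:124101933-124102232 on the + strand, and the Ccr1 window is chr9:123968643-123968942 on the - strand. Capitals mark matches, on either strand, to the nuclear receptor half-site AGGTCA, to its variant with the spelling GGGTCA, to that with the spelling AGTTCA, to that with the spelling GGTTCA, or to the motif GAGGAA, the core of the PU.1 motif.
Ccr2: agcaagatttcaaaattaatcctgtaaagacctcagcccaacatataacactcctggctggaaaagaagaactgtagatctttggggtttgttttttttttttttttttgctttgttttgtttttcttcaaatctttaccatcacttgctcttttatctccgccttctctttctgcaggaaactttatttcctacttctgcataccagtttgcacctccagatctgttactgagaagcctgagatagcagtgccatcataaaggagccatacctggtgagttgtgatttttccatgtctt
Ccr1: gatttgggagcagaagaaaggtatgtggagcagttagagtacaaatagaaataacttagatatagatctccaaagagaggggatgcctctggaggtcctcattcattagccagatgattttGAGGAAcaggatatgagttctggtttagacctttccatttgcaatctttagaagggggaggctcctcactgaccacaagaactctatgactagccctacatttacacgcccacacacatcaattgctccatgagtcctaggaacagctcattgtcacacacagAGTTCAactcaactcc

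The Ccr2 window held no match to these letters, and the Ccr1 window held 1 AGTTCA and 1 GAGGAA. Promoter windows were found for all 9 genes, 11 windows in total. Of the 11 windows, 3 had at least 1 of the 4 half-sites, against 43.7% of all 32851 promoter windows. These 3 belonged to Ccr1, Ccrl2 and Cmklr1. The sequence AGGTCA itself was in none of the windows of the 9 genes and in 16.3% of all windows, and its direct repeat with a spacing of 1 base was in none of them and in 0.0396% of all. GAGGAA was in 3 of the 11 windows, those of Ccr1, Cmklr1 and Fpr2, and in 28.3% of all. A match is a description of letters, and no measurement of binding was used here.

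The deposited values are normalised read values, from which the number of reads behind each value was recovered. Library totals were 652542 and 947372 reads for WT and 629030 and 1047021 reads for the libraries labelled Rxra-KO, so that 1 read was worth a value between 0.993 and 1.51. Values were compared with limma on the log2(value + 1) scale across all genes, and a gene passed when its adjusted p was under 0.05 and its log2 fold change was 0.6 or more in either direction. In all, 421 of 18364 genes passed, 2.29%, with 243 higher and 178 lower in the libraries labelled Rxra-KO. The median log2 fold change over all genes was 0.02. Rxra itself had 20 and 28 reads in WT against 33 and 77 in the libraries labelled Rxra-KO (log2 fold change 0.99 ± 0.36 SE, adjusted p = 0.183), so its total was not lower in them. The values count reads over the whole gene and do not isolate the floxed part, so they do not check the deletion, and every direction below rests on the labels. Lyz2, the lysozyme M gene, at whose locus LysM-Cre is inserted, had 9420 and 10684 reads in WT against 4241 and 6272 in the libraries labelled Rxra-KO and passed the test as lower (log2 fold change -1.03 ± 0.24 SE, adjusted p = 0.00163).

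Of the 9 receptor genes, 1 passed the test and was higher, Ccr2, beside 1.32% of all genes called higher. None was called lower, beside 0.969% of all genes. Ccr2 rose about 10.97-fold in the libraries labelled Rxra-KO and had the highest value of the 9 genes there. Fpr1, the receptor for formylated bacterial peptides, had the next largest fold change without passing the test. The other genes, of which Ccr1, Cmklr1 and Ackr3 had the most reads, had absolute log2 fold changes of at most 0.65, with intervals that include 0.

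**Figure D1:**
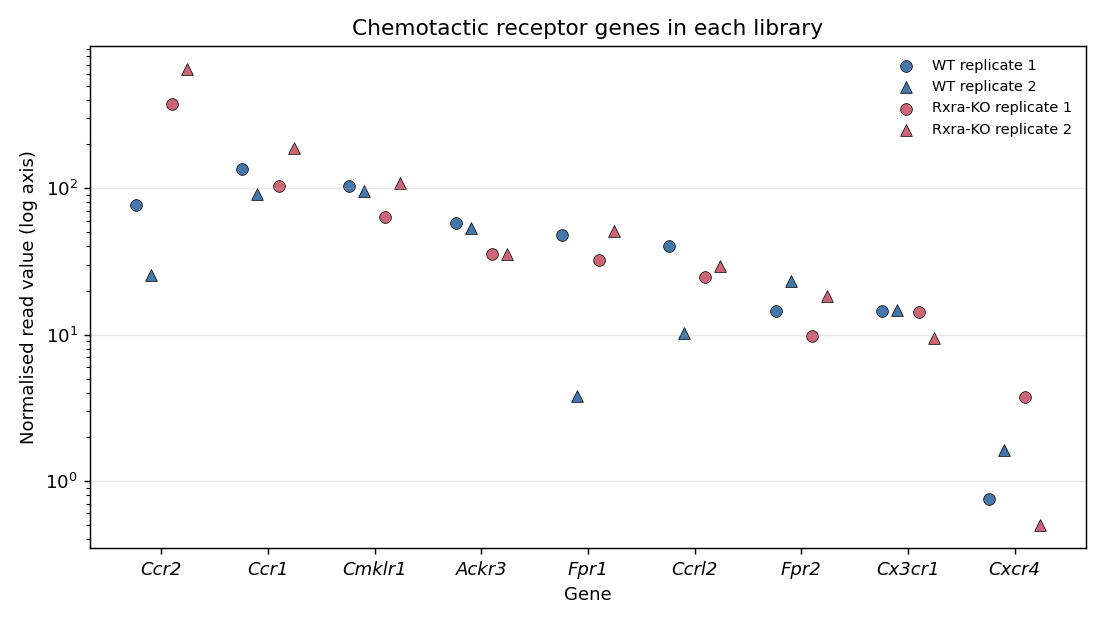
Normalised read value (log axis) of the 9 chemotactic receptor genes in each of the 4 libraries, 2 labelled WT (blue) and 2 labelled Rxra-KO (red), ordered by mean value. For Ccr2 the libraries labelled Rxra-KO, at 376 and 655, lie above the WT libraries, at 76.5 and 25.5, and Cxcr4 lies at the limit of a few reads in all 4.

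Ccr2 was covered by 50 and 23 reads in WT, against 249 and 659 in the libraries labelled Rxra-KO. The corresponding normalised read values were 76.5 and 25.5 in WT versus 376 and 655 in Rxra-KO. Both libraries labelled Rxra-KO were thus higher than both WT libraries, which was so for 18.8% of all genes. Exact Poisson 95% intervals, which cover counting error only, ran from 56.2 to 99.8 and from 15.8 to 37.4 in the WT libraries. The library kit has no molecular identifiers, so copies of the same molecule count as separate reads and the intervals may be too narrow. These intervals do not meet, so the WT libraries differed from each other by more than counting error if every read is a separate count. Group means were 51.0 ± 36.0 for WT and 515 ± 198 for Rxra-KO (SD, n = 2 each).

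The log2 fold change of Ccr2 was 3.46 ± 0.27 (SE), with a 95% interval from 2.92 to 3.995 and an adjusted p of 5.64e-25 by limma. It ranked 25 of 18364 genes by log2 fold change, and 17 of the 3467 genes with a mean value of at least 50. The size depended on which WT library was kept: leaving out WT replicate 1 gave 4.23 and leaving out WT replicate 2 gave 2.68, and the gene passed the test with each library left out. For 1 gene in 2 against 2 libraries, the smallest two-sided p of an exact permutation test is 0.333, so the adjusted p draws on the pooled spread of all genes in limma. Without the mean-variance trend in the spread the fold change was the same, but the adjusted p was 0.427, and after quantile normalisation it was 0.0741.

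**Figure D2:**
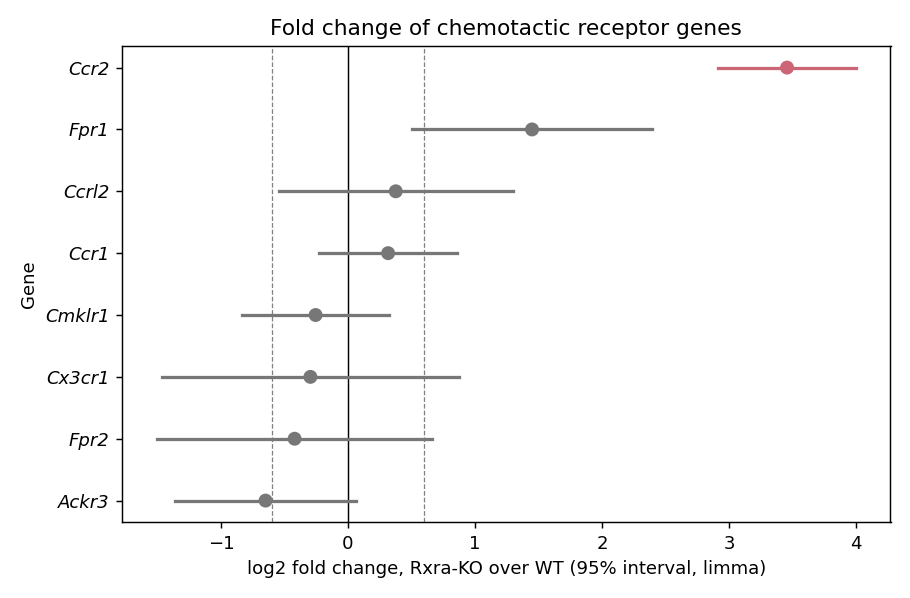
Log2 fold change, Rxra-KO over WT, of 8 receptor genes (points) with the 95% interval from limma (lines); Cxcr4, with at most 2 reads in a library, is left out. The dashed lines mark the minimum absolute log2 fold change of 0.6, and Ccr2 (red), at 3.46, is the gene that passed the test.

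Among the receptors for inflammatory CC chemokines, Ccr1 was the closest comparator of Ccr2, as it lies in the same gene cluster. CCR1 binds CCL3 and, in the mouse, CCL6 and CCL9. Ccr1 had values of 136 and 91.7 in WT versus 103 and 187 in Rxra-KO, from 89, 84, 68 and 188 reads. The groups overlapped, with the highest value in Rxra-KO replicate 2 and the lowest in WT replicate 2. It had a log2 fold change of 0.32 ± 0.28 (SE), with a 95% interval from -0.23 to 0.86 and an adjusted p of 0.815, and it was -0.11 without Rxra-KO replicate 2. The ratio of Ccr2 to Ccr1 reads was 0.562 and 0.274 in WT, but 3.66 and 3.51 in Rxra-KO.

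CX3CR1, the fractalkine receptor, and CXCR4, the CXCL12 receptor that retains cells in the bone marrow, were at low levels. Cx3cr1 had 9 and 13 reads in WT against 9 and 9 in Rxra-KO. Its values were 14.4 and 14.6 in WT versus 14.3 and 9.44 in Rxra-KO, so both values labelled Rxra-KO were lower. Groups that do not overlap were found for 38.1% of all genes, 18.8% with both Rxra-KO values higher and 19.3% with both lower. The log2 fold change was -0.30, with a 95% interval from -1.46 to 0.87 (adjusted p = 0.954). Cxcr4 had 0 and 1 reads in WT against 2 and 0 in Rxra-KO. At this depth, where 0 reads allow up to 3, no difference in Cxcr4 was detectable, and no fold is given.

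The receptors for formyl peptides and chemerin are those of the innate attractant systems. Fpr1 had 31 and 3 reads in WT against 21 and 51 in Rxra-KO, which gave values of 47.7 and 3.80, and of 32.4 and 51.1. The groups overlapped, and WT replicate 2 stood below the other 3 libraries. The log2 fold change was 1.45 ± 0.48 (SE), with a 95% interval from 0.50 to 2.40, and the adjusted p by limma was 0.0990. The value rested on the WT libraries: it came to 3.12 when WT replicate 1 was left out (adjusted p = 1.44e-05) and to -0.22 when WT replicate 2 was left out (adjusted p = 0.944). With voom weights on the recovered reads Fpr1 passed the test, at 1.90 (adjusted p = 0.0121).

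Fpr2, the receptor for annexin A1, serum amyloid A and several peptides, had 9 and 21 reads in WT against 6 and 18 in Rxra-KO. Its values of 14.4, 23.3, 9.79 and 18.4, in the same order, overlapped between the groups. The log2 fold change was -0.42, with a 95% interval from -1.50 to 0.66 (adjusted p = 0.914), and it was 0.0022 without Rxra-KO replicate 1. Cmklr1, the chemerin receptor that signals to Gi, had 68 and 88 reads in WT against 42 and 109 in Rxra-KO. In values this was 104 and 96.0 against 64.0 and 109, so the libraries labelled Rxra-KO lay on both sides of WT. Its log2 fold change was -0.26, with a 95% interval from -0.83 to 0.32 (adjusted p = 0.896), and 0.12 without Rxra-KO replicate 1.

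The atypical receptors bind attractants without signalling through G proteins. Ccrl2, which binds chemerin and presents it to CMKLR1, had values of 40.1 and 10.3 in WT versus 24.8 and 29.3 in Rxra-KO, from 26, 9, 16 and 29 reads. The values labelled Rxra-KO both lay between the WT values. The log2 fold change was 0.38, with a 95% interval from -0.55 to 1.30 (adjusted p = 0.902), and leaving out WT replicate 2 gave -0.56. Ackr3, a scavenger of CXCL12, had 38 and 49 reads in WT against 23 and 35 in Rxra-KO. Its values were 58.3 and 53.7 in WT versus 35.4 and 35.3 in Rxra-KO, so both libraries labelled Rxra-KO had the lower values, which was so for 19.3% of all genes. The log2 fold change of -0.65 ± 0.36 (SE) had a 95% interval from -1.36 to 0.06 and did not pass (adjusted p = 0.570).

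**Figure D3:**
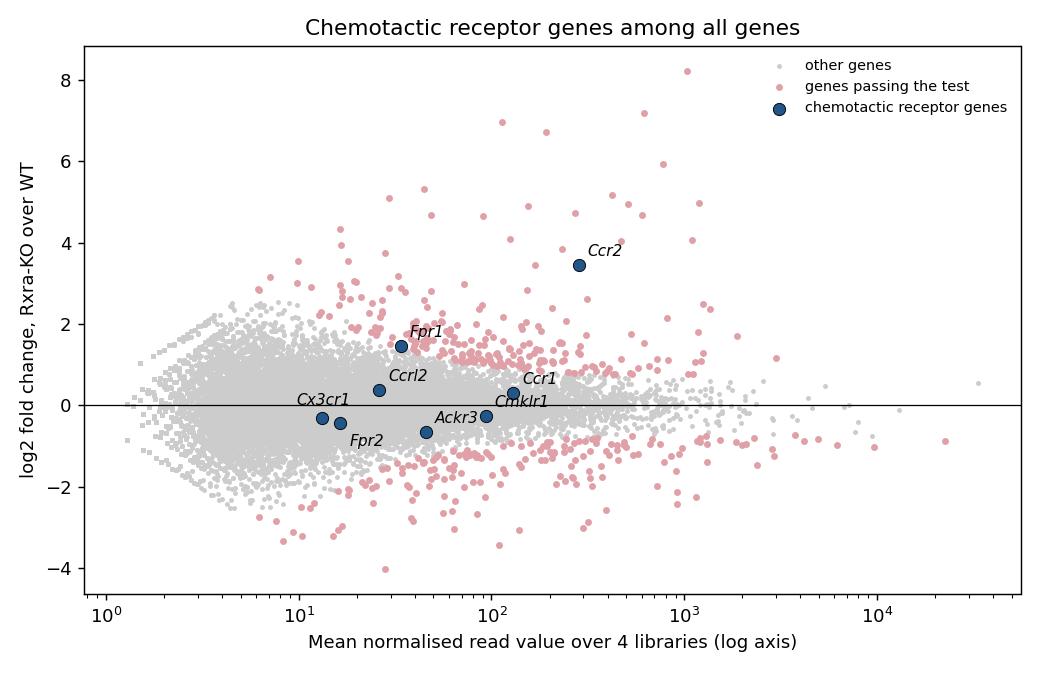
Mean normalised read value over the 4 libraries (log axis) against the log2 fold change, Rxra-KO over WT, for all 18364 genes, with those that passed the test in pink and 8 receptor genes labelled in blue (Cxcr4 is left out). Ccr2, at a mean value of 283 and a log2 fold change of 3.46, lies far from the other receptor genes, which lie among genes that did not pass.

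The make-up of the receptor transcripts changed with Ccr2. The 9 genes had 320 and 291 reads together in WT versus 436 and 1098 in Rxra-KO. Ccr2 took 15.6% (95% exact binomial interval 11.8 to 20.1) and 7.90% (5.08 to 11.6) of them in WT. In the libraries labelled Rxra-KO it took 57.1% (52.3 to 61.8) and 60.02% (57.1 to 62.9). These intervals treat every read as a separate count and cover counting error within a library, not the spread between libraries. The summed value of the 9 genes was 491 and 321 in WT versus 663 and 1095 in Rxra-KO. Without Ccr2 the sum was 415 and 295 in WT versus 288 and 440 in Rxra-KO, and the groups overlapped.

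**Figure D4:**
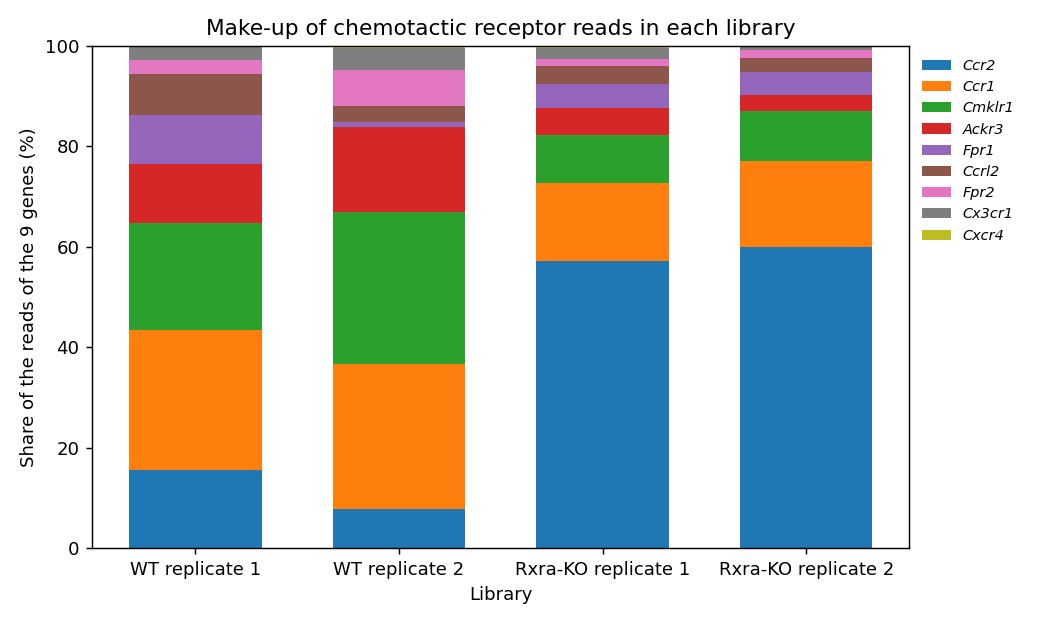
Share of the reads of the 9 receptor genes (%) that each gene took in each library, stacked to 100%. Ccr2 (dark blue, at the bottom) takes 15.6% and 7.90% in the WT libraries, and 57.1% and 60.02% in the libraries labelled Rxra-KO.

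Levels of different genes were compared per kilobase of their longest coding transcript in GENCODE. On this scale Ccr1 was highest in WT, with a mean of 40.1 per kilobase, followed by Cmklr1 with 34.6, Fpr1 with 19.4, Ackr3 with 18.3 and Fpr2 with 16.6. Ccrl2 had 10.3, Ccr2 8.90, Cx3cr1 3.23 and Cxcr4 0.660. In the libraries labelled Rxra-KO the order began with Ccr2, at 90.0 per kilobase, then Ccr1 with 51.2, Fpr1 with 31.5 and Cmklr1 with 30.0. Fpr1 spanned 2.87 to 36.0 between the WT libraries. Ccr1, Cmklr1, Ackr3, Fpr2, Ccrl2, Ccr2 and Cx3cr1 each had at least 1 WT library within that span. The place of Fpr1 in the WT order is thus not set apart from theirs. In WT replicate 2, Cmklr1 was above Ccr1, at 33.3 against 32.4 per kilobase. For Ccr2 the per-library levels were 13.3 and 4.45 in WT versus 65.6 and 114 in Rxra-KO.

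The labelled cell type was checked against its markers, and markers of other cells that the sort could hold are given beside Ccr2. Of 10 genes of LPMs, 7 passed the test as lower in Rxra-KO, while none passed as higher (median log2 fold change -1.06). Over all genes the shares were 0.969% lower and 1.32% higher. Their levels varied widely, from Prg4, a secreted proteoglycan, with 18776, 27362, 10048 and 16680 reads, to Cd9, a tetraspanin, with 6, 21, 7 and 12 reads. Csf1r, the receptor for macrophage colony-stimulating factor, did not pass, with values of 1363 and 1061 in WT versus 1454 and 1637 in Rxra-KO, both above WT. Gata6, the transcription factor that defines LPMs, had 35 and 65 reads in WT against 3 and 24 in Rxra-KO, and the summed value of the 10 genes was 36979 and 39050 in WT versus 19587 and 21813 in Rxra-KO. Without Prg4, which gave most of it, the sum was 8551 and 9367 in WT versus 4457 and 5246 in Rxra-KO. In bulk RNA, fewer cells of a type and less RNA per cell cannot be told apart.

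Of 12 monocyte markers, 1 passed the test, F13a1, a transglutaminase subunit also made by resident macrophages, with 186 and 45 reads in WT against 1622 and 1632 in Rxra-KO. The defining monocyte genes Ly6c2 (5, 0, 1 and 0 reads) and Plac8 (1, 1, 1 and 2 reads) were near 0 in every library. Summed over the 12 markers, the value was 10414 and 9033 in WT versus 8514 and 7757 in Rxra-KO, most of it from Fn1. Without Fn1 it was 464 and 258 in WT versus 2616 and 1818 in Rxra-KO, and without Fn1 and F13a1 it was 182 and 208 in WT versus 173 and 197 in Rxra-KO. Of 11 dendritic cell markers 1 was higher, Cd209a, and their summed values were 97.7 and 94.9 in WT versus 136 and 160 in Rxra-KO. Without Cd209a the sums were 75.7 and 80.3 in WT versus 70.8 and 80.4 in Rxra-KO, so the higher sum was that of this gene. None of the markers of neutrophils (6 measured), eosinophils (6), mast cells (6), B cells (8), T and NK cells (8) or mesothelial cells (7) passed the test. Of these, in the same order, 4, 4, 6, 6, 6 and 6 had a mean under 10 reads, which leaves little room to detect a difference. Over all genes 2.29% passed. The neutrophil markers S100a8, S100a9 and Ly6g had no entry. These counts thus do not show that the levels of such cells were equal.

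Genes of small peritoneal macrophages, the MHCII+ macrophages of the same cavity that carry CCR2, were listed after their values had been seen, and the study had named several of them from these samples. Of 5 such genes 3 passed the test as higher: Irf4, a transcription factor, with 12, 19, 41 and 58 reads, Retnla, a secreted product of alternatively activated macrophages, with 96, 29, 1055 and 3033 reads, and Clec10a, a lectin, with 7, 10, 64 and 75 reads. Cd226 did not pass, nor did Itgax, an integrin chain, whose values of 8.33 and 13.6 in WT were both above those of 3.76 and 6.46 in Rxra-KO. The summed value of the 5 genes was 187 and 80.8 in WT versus 1758 and 3156 in Rxra-KO, in the order of Ccr2 within both groups. Most of this sum was from Retnla except in WT replicate 2. Without Retnla, whose own reads were in the order of Ccr2 within both groups, it was 40.9 and 48.8 in WT versus 169 and 143 in Rxra-KO. That smaller sum was higher in both Rxra-KO libraries but not in the order of Ccr2 within either group. For MHC class II genes, the summed value of 7 of them was 479 and 2913 in WT versus 257 and 794 in Rxra-KO, highest in WT replicate 2, the library with the lowest Ccr2. Of these 7 genes, 1 passed the test as lower, H2-Ab1, with values of 366 and 2484 in WT versus 160 and 610 in Rxra-KO. Its groups overlapped, as the value of Rxra-KO replicate 2 was above that of WT replicate 1. The MHCII- CD102+ gate would leave out small peritoneal macrophages, and the labels give the purity after a double sort as 99%. Icam2, the gene of CD102, had values of 1092 and 1301 in WT versus 466 and 539 in Rxra-KO. It passed the test as lower (log2 fold change -1.25, adjusted p = 5.30e-06 by limma). Emr1, the gene of the other positive marker of the sort, also passed as lower (-0.89, adjusted p = 0.00692). Neither the part of small peritoneal macrophages in the rise of Ccr2 nor the effect of these lower levels on the gate was tested.

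Among the 13 other chemokine receptors reported here, none passed the test in limma, edgeR or DESeq2, and the median log2 fold change was 0.12. Over all genes 2.29% passed in limma, and 9 of the 13 had a mean under 10 reads, so the absence of calls says little. At an unadjusted p under 0.05 there was 1 in limma, 1 in edgeR and 0 in DESeq2, beside 1854 of all 18364 genes in limma. Cxcr2, a receptor for neutrophil-attracting chemokines, had 69 and 82 reads in WT against 59 and 102 in Rxra-KO, with a log2 fold change of -0.02. Ccr9, a receptor of gut-homing lymphocytes, had 18, 27, 20 and 17 reads and a log2 fold change of -0.31 (adjusted p = 0.929). Ackr2, a scavenger of inflammatory CC chemokines, had 16, 11, 9 and 26 reads and a log2 fold change of 0.13 (adjusted p = 0.981). Without one library the sign of Cxcr2 turned, to 0.09 without WT replicate 1 and 0.07 without Rxra-KO replicate 1, and that of Ccr9 to 0.09 without Rxra-KO replicate 2. That of Ackr2 turned to -0.35 without WT replicate 2 and to -0.29 without Rxra-KO replicate 2.

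In the gene cluster on chromosome 9, Ccr3 and Ccr1l1 lie between Ccr1 and Ccr2. Ccr3, the eotaxin receptor, had 0, 0, 3 and 3 reads, none of them over the floor of 3 reads per library, and no fold is given. Ccr1l1 had 2, 7, 3 and 4 reads, with a log2 fold change of -0.18 that became 0.29 when WT replicate 2 was left out. Neither passed the test, but with so few reads a moderate change in them could not be detected. Of the 4 genes from Ccr1 to Ccr2 in the table, Ccr2 passed, and Ccr1 was the other with enough reads to compare.

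The 22 other chemoattractant receptors measured had a median log2 fold change of 0.04, and 1 passed the test, beside 2.29% of all genes. C5ar1, the receptor for the complement fragment C5a, was higher, with 49 and 63 reads in WT against 88 and 150 in Rxra-KO (log2 fold change 0.96 ± 0.28 SE, adjusted p = 0.0388). The call was lost with any of the 4 libraries left out, with log2 fold changes between 0.88 and 1.05: the adjusted p was 0.121 without WT replicate 1, 0.280 without WT replicate 2, 0.275 without Rxra-KO replicate 1 and 0.405 without Rxra-KO replicate 2. C3ar1, the receptor for C3a, had 239 and 296 reads in WT against 422 and 492 in Rxra-KO, and did not pass (0.71, 95% interval 0.26 to 1.15, adjusted p = 0.0750). Lpar1, a receptor for lysophosphatidic acid, had 38 and 35 reads in WT against 14 and 27 in Rxra-KO (-0.93, adjusted p = 0.323).

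**Figure D5:**
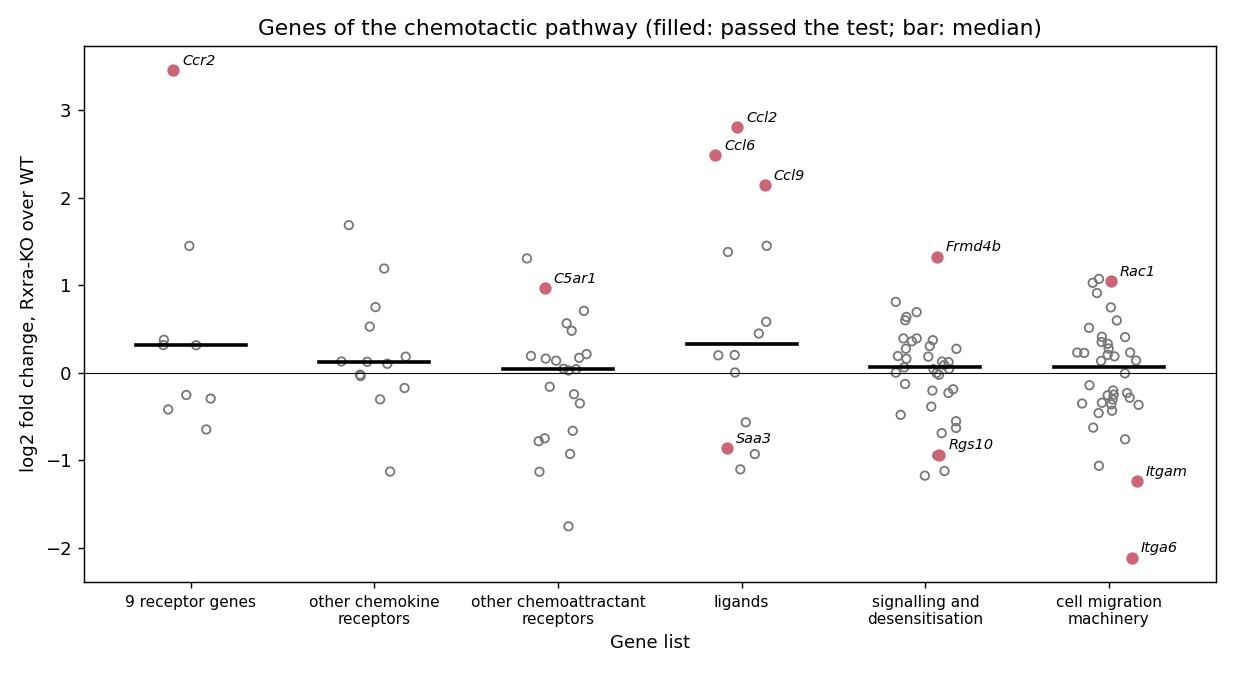
Log2 fold change, Rxra-KO over WT, of each gene reported in 6 lists: the 9 receptor genes, other chemokine receptors, other chemoattractant receptors, ligands, signalling and desensitisation genes and genes of cell migration (filled red, passed the test; open grey, did not pass; black bar, list median). The medians lie between 0.04 and 0.32, while Ccr2 and the ligands Ccl2, Ccl6 and Ccl9 lie above 2.

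Ligands of the 9 receptors were represented by 14 measured genes, of which 3 passed the test as higher and 1 as lower, with a median log2 fold change of 0.32. Of all genes, 1.32% were called higher and 0.969% lower. Ccl6 and Ccl9, chemokines of mouse myeloid cells that bind CCR1, had the most reads. Ccl6 had 290 and 295 reads in WT against 1322 and 2247 in Rxra-KO (log2 fold change 2.49 ± 0.22 SE, adjusted p = 2.18e-21). Ccl9 had 211 and 257 reads in WT against 798 and 1474 in Rxra-KO (2.15 ± 0.22 SE, adjusted p = 2.48e-16). Both kept passing with each library left out. The value of both ligands was thus higher in both libraries labelled Rxra-KO than in either WT library, which was so for 18.8% of all genes.

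Ccl2, the main ligand of CCR2, had 1 and 3 reads in WT against 30 and 15 in Rxra-KO. Its ratio at equal depth was 10.7, with an exact 95% counting interval from 3.88 to 40.8. It passed the test (adjusted p = 0.00330), but not without Rxra-KO replicate 1 (adjusted p = 0.666). Saa3, an acute-phase protein whose family acts on FPR2, had 236 and 335 reads in WT against 92 and 284 in Rxra-KO (-0.86 ± 0.24 SE, adjusted p = 0.0243). The values were lower in both libraries labelled Rxra-KO, mainly in Rxra-KO replicate 1, without which the log2 fold change was -0.35 (adjusted p = 0.938). The call was also lost without WT replicate 1 (adjusted p = 0.157) and without WT replicate 2 (adjusted p = 0.226).

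Downstream of the receptors, 37 genes of signalling and desensitisation had a median log2 fold change of 0.06, with 1 higher and 1 lower. That was 5.41% of the list, against 2.29% of all genes. Rgs10, which ends Gi signals by speeding GTP hydrolysis, had 308 and 582 reads in WT against 163 and 327 in Rxra-KO (-0.94 ± 0.23 SE, adjusted p = 0.00407). It was lower at equal depth in both libraries labelled Rxra-KO, but did not pass without WT replicate 2 (-0.72, adjusted p = 0.372) or Rxra-KO replicate 1 (-0.74, adjusted p = 0.313). Frmd4b, a FERM-domain scaffold protein, had 55 and 64 reads in WT against 163 and 153 in Rxra-KO (1.33 ± 0.27 SE, adjusted p = 2.87e-04), and did not pass without Rxra-KO replicate 1 (0.98, adjusted p = 0.340). Gnb1, a G protein beta subunit and the one with the highest value of these 3 genes, had a log2 fold change of 0.13 with a 95% interval from -0.30 to 0.56.

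Of 38 genes of the cell migration machinery 3 passed, 1 higher and 2 lower, and the median log2 fold change was 0.06. That was 7.89% of the list, against 2.29% of all genes. The lower ones were integrins: Itga6, a laminin receptor subunit, with 941 and 1446 reads in WT against 245 and 323 in Rxra-KO (-2.11 ± 0.22 SE, adjusted p = 3.71e-16), and Itgam, the CD11b chain of the complement receptor, with 2393 and 4179 reads in WT against 933 and 2116 in Rxra-KO (-1.24 ± 0.22 SE, adjusted p = 8.60e-06). Itgam also stands in the LPM marker list. Rac1, the GTPase that drives the leading edge, had 68 and 154 reads in WT against 147 and 339 in Rxra-KO (1.05 ± 0.25 SE, adjusted p = 0.00375). It did not pass without WT replicate 1 (0.70, adjusted p = 0.378) or without Rxra-KO replicate 2 (0.75, adjusted p = 0.458).

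The genes whose profile over the 4 libraries was most like that of Ccr2, by root-mean-square distance of the centred log2(value + 1) values among 3466 other genes with a mean value of at least 50, were Tfrc, Mrc1, Emp1, Maf and Rcn3. Tfrc, the transferrin receptor, was nearest, at a distance of 0.26, with 28 and 17 reads in WT against 233 and 517 in Rxra-KO. As in Ccr2, the lowest level was in WT replicate 2 and the highest in Rxra-KO replicate 2. Mrc1, the mannose receptor, followed at 0.53, with 63, 25, 671 and 744 reads. Emp1, a membrane protein, was at 0.56, the transcription factor Maf at 0.61 and Rcn3, a calcium-binding protein of the endoplasmic reticulum, at 0.64. With 4 libraries this likeness is a description and carries no test.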

How the data were processed

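Per the methods of the study, LPMs were sorted in repeated passes, and full-length cDNA was amplified with the SMART-Seq v4 kit, without molecular identifiers. Transcripts were quantified by the authors with Kallisto 0.43.0, against a reference the submitters name as the human build GRCh38 although the libraries are of mouse, and summarised to genes. Which reference gave the table was not settled here. The authors kept genes above a minimum level, applied TMM scaling and used limma. RNA-seq samples that did not group with their condition had been excluded by the authors. Such a choice favours libraries that resemble their group. The spread within groups may thus be understated, which bears on the p-values, the number of calls and the share of genes without overlap.

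The deposited table is a normalised read signal, 1 column per library, equal to the reads plus a fixed part of a read divided by the scaled library size. Whole reads were recovered from it: 100% of the values came out whole within 0.01 read. Column names number the replicates otherwise than the titles, and the titles were followed. Because the values are normalised, limma 3.58.1 (R 4.3.3) with a mean-variance trend was the main test, on log2(value + 1), which understates the change of low genes, for genes that reached a value of 1 in 2 or more libraries, two-sided, with Benjamini-Hochberg adjustment. All 18364 genes met this filter. edgeR 4.0.16 on the recovered reads called 446 genes. DESeq2 1.42.0 and other settings were alternatives. The procedure was tested on simulated data. The labels do not say that libraries came from separate mice, so p-values measure the spread between these libraries, which may be technical.

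The receptor genes and the gene lists were chosen with earlier results of these data known. Named genes were the 9 receptors, the called genes of each other list (filled up to 3 by mean value), the genes between Ccr1 and Ccr2 and the 5 genes closest to its profile. Genes of small peritoneal macrophages and of MHC class II were added after their values had been seen. 1 item is not reported here. Of the listed genes outside the receptors, those without a matching symbol were not analysed here, and 5 matched by an older symbol. Reads are given per library in the order WT replicate 1, WT replicate 2, Rxra-KO replicate 1 and Rxra-KO replicate 2. Shared stretches were counted between GENCODE vM21 transcripts.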

Additional observations from a re-analysis of the deposited data

How the results depend on the processing

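Depth limits what can be said of Cxcr4, Cx3cr1 and Fpr2, which had under 25 reads in each library. Ccr2 kept its direction in all 17 alternatives, with a log2 fold change from 2.68 to 4.23, the lowest and highest with one WT library left out. It lost its call after quantile normalisation (3.39, adjusted p = 0.0741), without the mean-variance trend (3.46, adjusted p = 0.427) and without the trend among genes with a value of at least 10 in 2 libraries (3.46, adjusted p = 0.0950), a setting chosen after seeing the data. Over all genes these settings called 43, 0 and 26 genes (1620, 1579 and 1137 at an unadjusted p under 0.05), DESeq2 called 235, and leaving out 1 library left between 167 and 381. Of the calls, 57.7% were higher, against 70.4% without WT replicate 2, 44.8% without Rxra-KO replicate 2 and 80.8% in the setting added later. The causes were not tested.

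Among the 9 receptors, 0 were called under those 3 settings, 2 with voom, and 1 to 2 with 1 library left out. For the other chemokine receptors reported it was 0 in all alternatives. For the other chemoattractant receptors it was 0 under those 3 settings, with DESeq2, at an adjusted p under 0.01, with values of at least 10 and with any 1 library left out, and 2 with library total scaling, with voom and with the replicate block. For ligands it was 2 after quantile normalisation and with DESeq2, 0 without the trend in both forms, and 2 to 4 with 1 library left out. Signalling genes gave 0 under those 3 settings, 4 with the replicate block and 0 to 3 with 1 library left out. Migration genes gave 1 after quantile normalisation and 0 without the trend in both forms.

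Signs turned with 1 library left out, where the log2 fold change ranged from -0.11 to 0.74 for Ccr1, -0.56 to 1.31 for Ccrl2, -0.63 to 0.12 for Cmklr1, -0.22 to 3.12 for Fpr1, -0.84 to 0.0022 for Fpr2, -0.14 to 0.093 for Cxcr2, -0.70 to 0.091 for Ccr9, -0.35 to 0.60 for Ackr2 and -0.64 to 0.29 for Ccr1l1. With the replicate number as a block, 540 genes were called and the adjusted p of Ccr2 was 1.72e-44, but same-numbered libraries deviated together with a correlation of 0.0629, and the labels give the numbers no shared source.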
